A study of Mus musculus with 28 samples.

Results

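The genes described here are 8 core genes of the TGF-beta pathway, chosen by name, with earlier results of these data known: *Tgfb1*, *Tgfbr1*, *Tgfbr2*, *Smad2*, *Smad3*, *Smad4*, *Smad7* and *Skil*. All 8 were among the 48587 genes of the count table, and all 8 were among the 15298 genes with enough reads to be tested. They were measured by RNA sequencing of microglia, the resident macrophages of the brain, which had been sorted from the hippocampus of 28 male mice at 16 weeks of age by their surface proteins as CD11b+ CD45low cells. The genotypes were heterozygous 5xFAD mice, which carry mutant human APP and PS1 transgenes driven by the neuronal Thy-1 promoter and deposit amyloid-β, and wild-type (WT) littermates, all on C57BL/6J. The second factor was the gut microbiota, and mice were specific pathogen-free (SPF), germ-free (GF), or SPF and given an antibiotic mix (ABX) of vancomycin, cefoxitin, gentamicin and metronidazol in drinking water for 8 weeks. With 1 library per mouse, the WT groups held 5 SPF, 4 GF and 5 ABX mice and the 5xFAD groups 3 SPF, 5 GF and 6 ABX mice. GF mice came from a facility in Bern, the GF 5xFAD line having been made by embryo transfer, and all others were kept in Freiburg, so germ-free status cannot be told apart from the facility.

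TGF-beta1 is made as a latent complex that is held at the cell surface or in the matrix and released by integrins. The active ligand binds the type II receptor encoded by *Tgfbr2*, which phosphorylates the type I receptor kinase encoded by *Tgfbr1*. That kinase phosphorylates the receptor Smads encoded by *Smad2* and *Smad3*, which enter the nucleus with the common partner encoded by *Smad4*. *Smad7* encodes an inhibitory Smad that blocks the type I receptor, and *Skil* encodes SnoN, a corepressor of Smad complexes, and both are themselves induced by the pathway. In microglia, TGF-beta signalling is known to maintain the homeostatic expression program, which includes *P2ry12* and *Tmem119*.

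Of the 9 differences of the 8 genes that passed the test in pairwise comparisons, 5 were in the 2 receptor genes *Tgfbr1* and *Tgfbr2*, so the 250 bases upstream of their annotated start sites are shown, with a match to CAGAC, a Smad-binding element read as CAGAC or GTCTG, in capitals (RefSeq, GRCm38.p6). RefSeq promoters were matched for 4 of the 8 genes, *Tgfb1*, *Tgfbr1*, *Tgfbr2* and *Smad3*. The *Tgfbr1* window, on the forward strand at chr4:47352972-47353221, the one at the start of the gene, held no match, and that of *Tgfbr2*, on the reverse strand at chr9:116175364-116175613, held 1 match. A second RefSeq start site of *Tgfbr1*, inside the gene, has its window at chr4:47385966-47386215, which held 1 match and is not shown. CAGAC or its reverse complement was present in 42.2% of 32851 promoter windows, so a match is common. The PU.1 element GAGGAAGT or its reverse complement ACTTCCTC was in neither window and in 2.44% of all windows. GC content was 74.8% in the *Tgfbr1* window shown and 58.4% upstream of *Tgfbr2*.
Tgfbr1: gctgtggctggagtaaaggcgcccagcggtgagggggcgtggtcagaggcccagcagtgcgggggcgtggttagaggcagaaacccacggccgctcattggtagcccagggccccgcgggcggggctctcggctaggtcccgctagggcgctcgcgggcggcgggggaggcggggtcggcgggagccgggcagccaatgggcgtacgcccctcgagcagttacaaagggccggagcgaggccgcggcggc
Tgfbr2: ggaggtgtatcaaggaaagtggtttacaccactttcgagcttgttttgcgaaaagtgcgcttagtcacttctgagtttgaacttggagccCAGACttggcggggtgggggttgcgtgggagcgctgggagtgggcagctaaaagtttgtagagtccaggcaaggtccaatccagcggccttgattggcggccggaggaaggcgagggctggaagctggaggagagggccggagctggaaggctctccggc

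Libraries held 14441610 to 29977395 reads counted on genes. Values are given as CPM, the usual scaling of counts to the library size, with TMM factors between 0.9177 and 1.0667, unless stated otherwise. The microglial markers *P2ry12*, *Tmem119* and *Cx3cr1* were abundant in all 28 libraries, at 4457 to 11931, 3033 to 5844 and 3898 to 7060.3 CPM. The 6 neutrophil markers, *S100a8* and *S100a9* among them, summed to 56.1 to 226 CPM in the 3 SPF 5xFAD mice and to 115 CPM in mouse FAD_ABX_1151, and did not exceed 0.289 CPM in the other 24 libraries. Those with enough reads to be tested had them only through the libraries in which they are high, so their calls are not counted. The 6 border-associated macrophage markers, *Mrc1* and *Cd163* among them, summed to 26.7 to 189 CPM in ABX 5xFAD and 3.57 to 5.57 CPM in ABX WT mice, and to 14.0 to 22.6 CPM in SPF 5xFAD and 3.30 to 7.71 CPM in SPF WT mice. In GF mice they summed to 10.2 to 35.0 CPM in WT and 9.30 to 57.4 CPM in 5xFAD mice. The 4 monocyte markers summed to 15.4 to 39.7 CPM in SPF, 6.52 to 26.9 CPM in GF and 14.3 to 52.6 CPM in ABX 5xFAD mice, and did not exceed 16.3 CPM in WT mice. The sample descriptions follow 3 numbering styles: the first is that of WT mice under SPF and ABX, the second that of SPF 5xFAD mice and of mouse FAD_ABX_1151, and the third that of GF mice of either genotype and of the 5 remaining ABX 5xFAD mice. Whether these styles mark library batches is not stated. GF 5xFAD against GF WT and ABX WT against SPF WT each lie within 1 style, and ABX against GF 5xFAD does so without mouse FAD_ABX_1151. In the genotype comparisons under SPF and ABX, in GF against SPF mice of either genotype and in ABX against GF WT mice no style is shared, so group and style cannot be told apart, and ABX and SPF 5xFAD mice share a style only through mouse FAD_ABX_1151. For mouse FAD_GF_201 the description names another genotype (WT) than the title, and the mouse was used as 5xFAD by its title. Results are also given over 26 mice, without mice FAD_ABX_1151 and FAD_ABX_1482, a set that an earlier analysis chose after values of these data had been seen. Mouse FAD_ABX_1482 was the lowest ABX 5xFAD mouse for *Tgfbr1*, *Tgfbr2*, *Smad2*, *Smad3* and *Skil*, so a difference that passes over the 26 mice alone is given as a value and not as support.

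Both receptor genes were among the most abundant transcripts of these microglia. Per length of the gene model, as RPKM (reads per kilobase, scaled to the library size), *Tgfbr1* had a mean of 311 over the 28 mice and *Tgfbr2* 220.1, against 40.8 for *Tgfb1*. The other genes followed with mean levels of 26.04 RPKM for *Smad4*, 23.9 for *Skil*, 22.7 for *Smad2*, 18.2 for *Smad3* and 14.1 for *Smad7*. By average log2 CPM, not corrected for length, *Tgfbr1* lay above 99.7% and *Smad7*, the lowest of the 8, above 79.5% of the tested genes. The gene models of *Tgfbr2* and *Smad2* in the table, 4785 and 3549 bases, are shorter than the 8187 and 8781 exonic bases of GENCODE M21, and those of the other 6 genes are equal to it, so the levels per length of these 2 genes are the less certain ones. All 8 genes had at least 584 reads in every library, so the spread between mice and not counting limits the comparisons. In an F test over the 6 groups (edgeR quasi-likelihood with Benjamini-Hochberg adjustment over all tested genes), which called 33.2% of all genes, 5 of the 8 passed: *Tgfbr2* (adjusted p = 5.81e-05), *Tgfbr1* (adjusted p = 0.000108), *Skil* (adjusted p = 0.000559), *Smad3* (adjusted p = 0.00503) and *Smad7* (adjusted p = 0.0307). *Tgfb1* (adjusted p = 0.148), *Smad2* (adjusted p = 0.235) and *Smad4* (adjusted p = 0.241) did not pass.

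**Figure D1:**
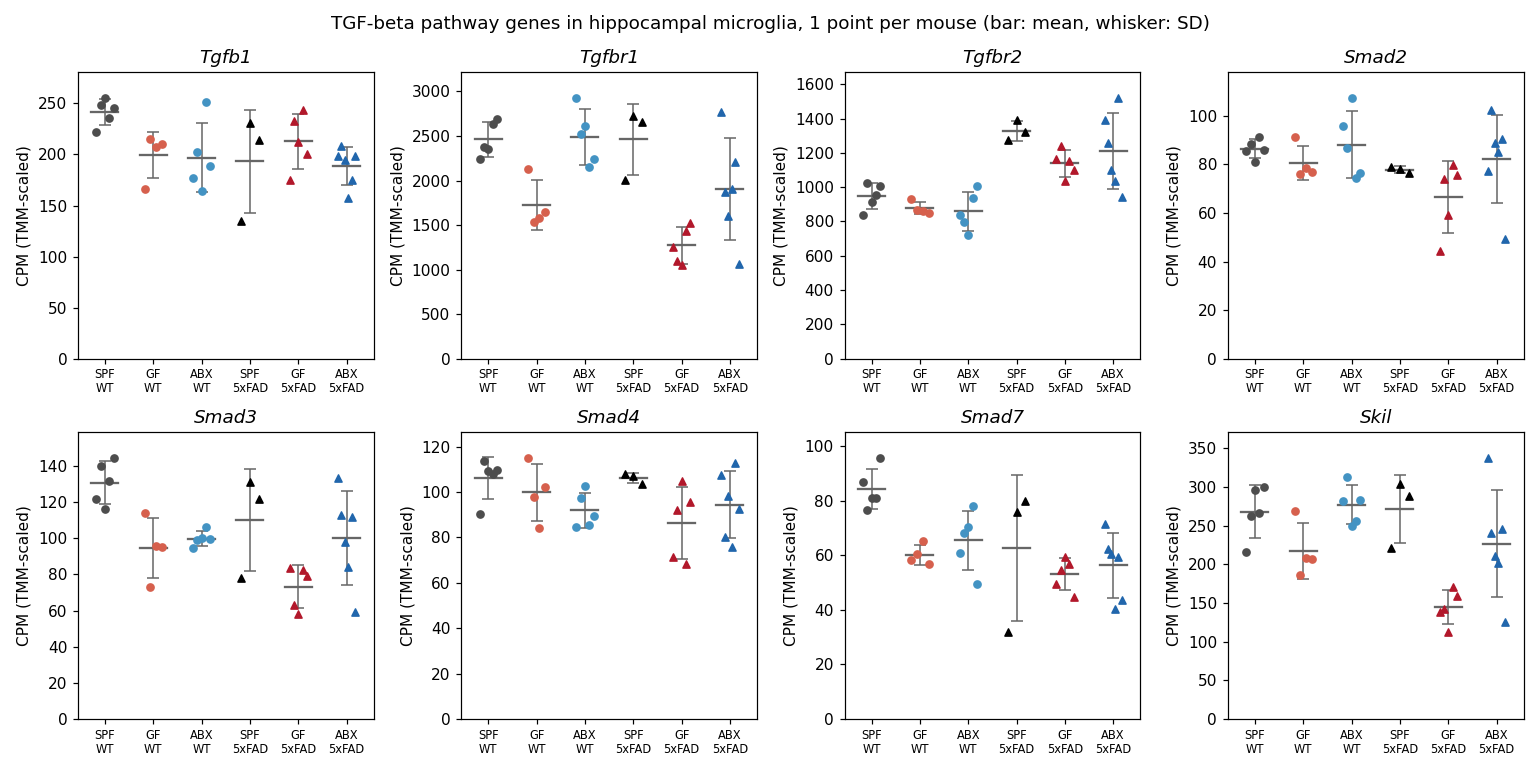
Expression of the 8 TGF-beta pathway genes in CPM (TMM-scaled, linear axes from 0) in the 6 groups, with 1 point per mouse, a bar at the mean and whiskers of 1 SD. *Tgfbr2* is higher in the 3 groups of 5xFAD mice than in the matched WT groups, and *Tgfbr1* and *Skil* are lowest in GF 5xFAD mice.

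*Tgfb1*, the ligand gene (mouse chromosome 7, 25687002 to 25705077, forward strand, GRCm38), had group means between 189 and 242 CPM, and none of its pairwise comparisons passed. It had 222, 248.6, 255, 236 and 246 CPM in SPF WT mice, 166, 215, 207 and 209.9 CPM in GF WT mice and 177, 202, 164, 252 and 188 CPM in ABX WT mice. SPF WT mice had the highest mean, 242 ± 12.9 CPM (SD, n = 5), and lay above all 4 GF WT mice, while the ABX WT mice overlapped both. The 5xFAD mice had 135, 230.4 and 214 CPM under SPF, 175, 232, 212, 243 and 200.7 CPM under GF and, in the 6 ABX mice, 157 at the lowest, 196 at the median and 208 CPM at the highest. These 3 groups overlapped one another, and mouse FAD_SPF_1144 was the lowest of all 28 mice. The order of the means ran from SPF WT through GF 5xFAD (213 ± 26.9), GF WT (199.3 ± 22.7), ABX WT (197 ± 33.9) and SPF 5xFAD (193 ± 50.9) to ABX 5xFAD mice (189 ± 18.9). Below SPF WT mice, neighbours in this order differed by less than 1 SD, taken as the larger of their SDs. Relative to WT, 5xFAD mice had a log2 fold change of -0.32 (adjusted p = 0.276), 95% interval -0.62 to -0.03, under SPF, which was -0.12 (adjusted p = 0.934) without mouse FAD_SPF_1144, 0.09 (adjusted p = 0.698) under GF and -0.06 (adjusted p = 0.797) under ABX. In bulk RNA of sorted cells, fewer cells with a transcript and less of it per cell cannot be told apart.

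The other ligand genes were nearly absent from these libraries. *Tgfb2* reached at most 4.08 CPM, with 2.22 ± 1.73 CPM (SD, n = 5) in GF 5xFAD mice and a group mean of at most 0.616 CPM elsewhere. *Tgfb3* was at 0 in 22 of 28 libraries and did not exceed 0.357 CPM. Of 13 listed genes for further ligands and for the anchoring and release of the latent complex, 7 had enough reads to be tested. Of these 7, *Tgfb2* and *Itgb8*, an integrin chain that partners αV, were at 0 in 8 and 14 of 28 libraries, and *Itgb8* did not exceed 1.92 CPM. Both had enough reads only through the libraries in which they are high, so they are left out of the counts. Of the other 5, *Thbs1* and *Furin* rose under ABX in 5xFAD against WT mice, beside 9.45% of all tested genes called higher. *Thbs1* (thrombospondin-1, an activator of latent TGF-beta) rose with a log2 fold change of 1.08 (adjusted p = 0.00524, SE 0.264), from 12.0 ± 2.83 to 25.3 ± 8.27 CPM. *Furin*, the protease that cleaves the TGF-beta precursor, rose with a log2 fold change of 0.43 (adjusted p = 0.027, SE 0.131). Under GF, *Ltbp3*, which encodes a latent TGF-beta binding protein, rose with a log2 fold change of 1.32 (adjusted p = 0.0136), beside 9.43% of all tested genes called higher, and under SPF none of the 5 passed. *Itgb8* and *Ltbp3* are named here after their values had been seen. In ABX 5xFAD against ABX WT mice 6 of 6 border-associated macrophage and 2 of 3 tested monocyte markers were called higher. Of these mice, mouse FAD_ABX_1151 alone was high in neutrophil markers. The part of all these markers in the rises was not tested.

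*Tgfbr2*, the gene of the ligand-binding type II receptor (mouse chromosome 9, 116087698 to 116175363, reverse strand), was higher in 5xFAD than in WT mice under each of the 3 microbiota conditions, by 1.30 to 1.41 times. Under SPF, the 3 5xFAD mice had 1278, 1392 and 1319.6 CPM and the 5 WT mice 840.2, 1025, 914, 952 and 1009 CPM, so that every 5xFAD mouse lay above every WT mouse. The means were 1329.7 ± 57.9 CPM (SD, n = 3) and 948 ± 75.1 CPM (SD, n = 5), with a log2 fold change of 0.49 (adjusted p = 0.00771, SE 0.114). It was the only 1 of the 8 genes called in this comparison, beside 4.57% of all genes called and 3.73% called higher. The call held under each of the 9 alternative settings and with each mouse left out. The neutrophil and border-associated macrophage markers were higher in these 5xFAD than in these WT mice, as given above, and their part in the difference was not tested.

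In GF mice, *Tgfbr2* had 1164, 1239, 1034, 1153 and 1101 CPM in the 5 5xFAD mice and 934, 865, 864 and 852 CPM in the 4 WT mice. The groups did not overlap here either, the lowest 5xFAD mouse lying above the highest WT mouse. The means were 1138 ± 76.4 CPM (SD, n = 5) and 879 ± 37.1 CPM (SD, n = 4), with a log2 fold change of 0.37 (adjusted p = 0.0153, SE 0.107). *Tgfbr2* was 1 of 2 genes of the 8 called, with *Skil*, beside 15.6% of all genes called. This comparison lies within 1 numbering style, and the neutrophil markers were at most 0.0895 CPM in both groups. Of the tested markers of other cells, 2 of 4 astrocyte markers were called higher and 1 of 3 endothelial markers lower in GF 5xFAD mice. The 5 astrocyte markers summed to 2.94 to 11.0 CPM in GF 5xFAD and 0.627 to 1.93 CPM in GF WT mice. The 5 endothelial markers summed to 10.1 to 23.1 and 28.2 to 34.7 CPM. Of the endothelial markers, *Pecam1* had a median of 25.5 CPM over all 28 libraries, and *Cdh5* and *Flt1* had 0.372 and 0.615 CPM. *Cldn5* and *Ly6c1* were at 0 in 25 and 28 libraries. The part of the astrocyte and endothelial markers in the differences between these groups was not tested. The call of *Tgfbr2* was lost when libraries were scaled by their totals alone, with a log2 fold change of 0.25 (adjusted p = 0.0819), a scaling that moved the median of all genes in this comparison to -0.15.

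In ABX mice, *Tgfbr2* had 944 at the lowest, 1181 at the median and 1519.9 CPM at the highest in the 6 5xFAD mice and 836, 796, 719.7, 936.2 and 1004 CPM in the 5 WT mice. Here 5 of 6 5xFAD mice lay above every WT mouse, and mouse FAD_ABX_1482, with 944 CPM, lay within the WT range. The means were 1209 ± 221 CPM (SD, n = 6) and 858 ± 113 CPM (SD, n = 5), with a log2 fold change of 0.49 (adjusted p = 0.000574, SE 0.0966). It was again the only 1 of the 8 called, beside 14.4% of all genes called. Over the 26 mice the log2 fold change was 0.52 (adjusted p = 0.000307), and the call held under each of the 9 settings and with each mouse left out. The part of the border-associated macrophage markers, higher in these 5xFAD mice, was not tested. The 3 effects of genotype differed by -0.11 (95% interval -0.44 to 0.21, adjusted p = 0.889) between GF and SPF, by 0.01 (95% interval -0.30 to 0.31, adjusted p = 1) between ABX and SPF and by 0.12 (95% interval -0.17 to 0.41, adjusted p = 0.751) between ABX and GF mice, on the log2 scale. No difference between microbiota conditions within a genotype was called for *Tgfbr2*, the furthest being GF against SPF 5xFAD mice with -0.22 (adjusted p = 0.211), which passed with library size alone at -0.32 (adjusted p = 0.0479). By mean level, the order ran from SPF 5xFAD through ABX 5xFAD and GF 5xFAD to SPF WT, GF WT and ABX WT mice, and neighbours within each genotype were not called different.

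*Tgfbr1*, the gene of the type I receptor kinase (mouse chromosome 4, 47353222 to 47414931, forward strand), was lowest in GF 5xFAD mice. These had 1258, 1095, 1053, 1435 and 1529 CPM, and the SPF 5xFAD mice had 2008, 2723 and 2654 CPM. All 5 GF mice lay below all 3 SPF mice, the means being 1274 ± 207 CPM (SD, n = 5) and 2462 ± 394 CPM (SD, n = 3). The difference was a log2 fold change of -0.95 (adjusted p = 0.00179, SE 0.179), and the gene was 1 of 3 of the 8 that fell in this comparison, with *Skil* and *Smad3*, beside 12.8% of all genes called, 6.97% higher and 5.86% lower. *Tgfbr1* and *Skil* were also called in this comparison under each alternative setting and with each mouse left out. The neutrophil markers were at 56.1 to 226 CPM in the SPF 5xFAD mice and at most 0.0519 CPM in the GF 5xFAD mice, and the part of the cells they mark in the difference was not tested. The numbering style, which also differs, cannot be told apart from the group.

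The 6 ABX 5xFAD mice had 1061 at the lowest, 1888 at the median and 2764 CPM at the highest for *Tgfbr1*, a wide spread that ran from mouse FAD_ABX_1482, within the GF range, to mouse FAD_ABX_1151, above every SPF 5xFAD mouse. Their mean of 1902 ± 572 CPM (SD, n = 6) was above that of the GF 5xFAD mice by a log2 fold change of 0.58 (adjusted p = 0.0152, SE 0.153). Of the 8 genes 2, *Tgfbr1* and *Skil*, rose in this comparison, beside 10.6% of all genes called, 4.52% higher and 6.07% lower. In the same comparison 1 of 6 border-associated macrophage markers and 1 of 3 tested monocyte markers were called higher. Neutrophil markers were high in mouse FAD_ABX_1151 alone. The part of all these markers in the rises of *Tgfbr1* and *Skil* was not tested. Without mouse FAD_ABX_1151, which leaves only mice of the third numbering style in both groups, the log2 fold change was 0.45 (adjusted p = 0.051). Without mouse FAD_ABX_1151 and mouse FAD_ABX_1482 it was 0.57 (adjusted p = 0.00317), and in a fit of these 2 groups alone 0.61 (adjusted p = 0.0923). Against SPF 5xFAD mice the ABX 5xFAD mice had a log2 fold change of -0.37 (95% interval -0.73 to -0.02, adjusted p = 0.687). In that comparison edgeR called 0 genes in all, with 1085 at an unadjusted p under 0.05, and DESeq2 called 8 and voomWithQualityWeights 134, none of them among the 8.

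Among WT mice the values of *Tgfbr1* were 2237, 2381, 2355, 2639 and 2691 CPM under SPF, 2133, 1532, 1579 and 1653 CPM under GF and 2927, 2519, 2612, 2149 and 2242 CPM under ABX. All 4 GF WT mice lay below every SPF WT and every ABX WT mouse, and the highest GF WT mouse was mouse WT_GF_199. GF against SPF WT mice gave a log2 fold change of -0.51 (adjusted p = 0.109), 95% interval -0.86 to -0.17, and ABX against GF WT mice one of 0.53 (adjusted p = 0.0538), so neither passed. With voomWithQualityWeights 4 of the 8, *Tgfbr1*, *Smad3*, *Smad7* and *Skil*, were called lower in GF than in SPF WT mice, beside 10.7% of all genes called by that fit, *Tgfbr1* with -0.58 (adjusted p = 0.00166). Both differences of *Tgfbr1* passed over the 26 mice, with -0.51 (adjusted p = 0.0158) and 0.53 (adjusted p = 0.00613). Both also passed with DESeq2 (adjusted p = 0.0466 and 0.0188) and with only the groups compared (adjusted p = 0.00466 and 0.00872). In edgeR with TMM factors over all 28 mice none of the 8 genes was called in GF against SPF WT mice, beside 1.62% of all genes (0.869% higher and 0.752% lower), or in ABX against GF WT mice, beside 6.88% (2.4% higher and 4.48% lower). Of the 6 border-associated macrophage markers 4 were called higher in GF than in SPF WT mice and 4 lower in ABX than in GF WT mice, and their part in these differences was not tested. In ABX against SPF WT mice edgeR called 0 of all genes, with 687 at an unadjusted p under 0.05, and DESeq2 called 2 and voomWithQualityWeights 0. Here *Tgfbr1* had a log2 fold change of 0.02 (95% interval -0.31 to 0.34).

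The genotype differences of *Tgfbr1* did not pass in edgeR with TMM factors over all 28 mice. Relative to WT, 5xFAD mice had a log2 fold change of 0.00 (95% interval -0.37 to 0.37, adjusted p = 1) under SPF, -0.44 (adjusted p = 0.0756) under GF and -0.39 (adjusted p = 0.0845) under ABX. In GF mice all 5 5xFAD mice lay below all 4 WT mice. Over the 26 mice both of the latter passed, the GF value being -0.44 (adjusted p = 0.0104) and the ABX value -0.39 (adjusted p = 0.0267). The GF difference also passed with library size alone (adjusted p = 0.0191) and only the groups compared (adjusted p = 0.0274), and was -0.32 (adjusted p = 0.281) without mouse WT_GF_199. It passed without mouse FAD_GF_201, at -0.50 (adjusted p = 0.045), without mouse FAD_ABX_1151 (adjusted p = 0.0376) and without mouse FAD_ABX_1482 (adjusted p = 0.0223). The ABX difference also passed with library size alone (adjusted p = 0.0363), gene length offsets (adjusted p = 0.03) and voomWithQualityWeights (adjusted p = 0.0253), and was -0.27 (adjusted p = 0.183) without mouse FAD_ABX_1482. Without mouse FAD_ABX_1151 it passed, at -0.53 (adjusted p = 0.00913). The genotype effect differed between GF and SPF mice by -0.44 (adjusted p = 0.655). By mean level the order was ABX WT, SPF 5xFAD, SPF WT, ABX 5xFAD, GF WT and GF 5xFAD, and the first 3 differed by less than 1 SD.

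**Figure D2:**
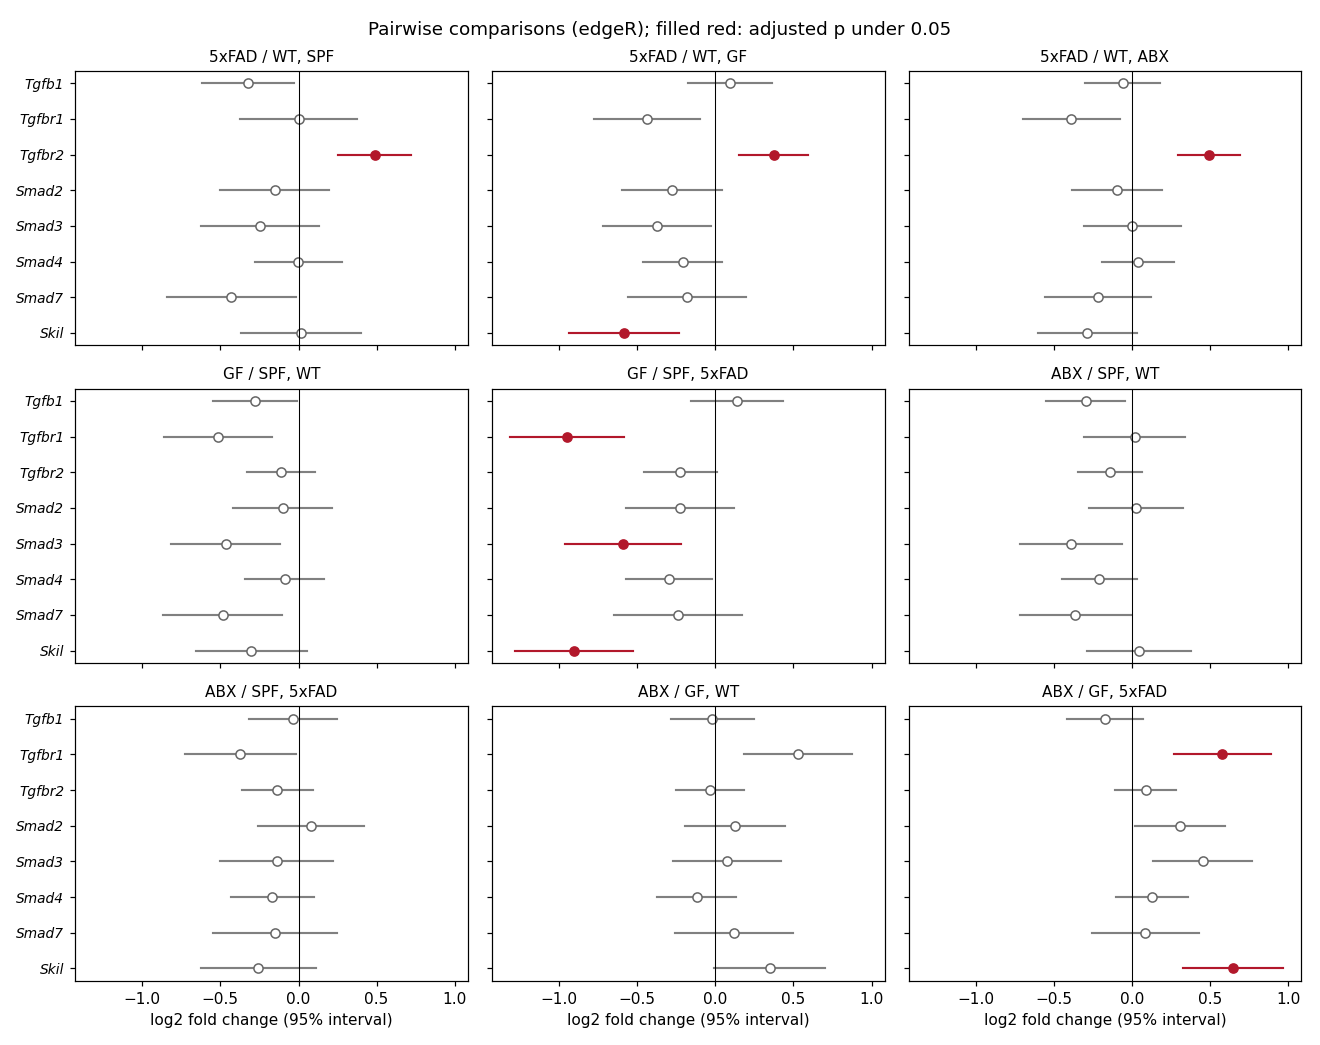
Log2 fold changes of the 8 genes with 95% intervals in the 9 pairwise comparisons, with the threshold of an adjusted p of 0.05 marked by filled red points. *Tgfbr2* is marked in the 3 comparisons of genotype, *Skil* also in that of GF mice, *Tgfbr1*, *Smad3* and *Skil* in GF against SPF 5xFAD mice, and *Tgfbr1* and *Skil* in ABX against GF 5xFAD mice.

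Since *Tgfbr2* rose with genotype while *Tgfbr1* was low in GF mice, their ratio within each library, in reads per base of gene model, was taken after these values had been seen and is given as a description with no test. The ratio of *Tgfbr2* to *Tgfbr1* was 0.513, 0.588, 0.530, 0.4929 and 0.512 in SPF WT mice and 0.869, 0.698 and 0.679 in SPF 5xFAD mice. In GF mice it was 0.598, 0.771, 0.747 and 0.704 in WT and 1.26, 1.55, 1.34, 1.097 and 0.983 in 5xFAD mice. In ABX mice it was 0.390, 0.431, 0.376, 0.595 and 0.612 in WT mice and ran from 0.688 through a median of 0.929 to 1.21 in 5xFAD mice. Within each condition the 5xFAD mice lay above the WT mice without overlap, and GF 5xFAD mice had the highest mean, 1.25 ± 0.218 (SD, n = 5), against 0.527 ± 0.0365 (SD, n = 5) in SPF WT mice. The short *Tgfbr2* model of the table sets the absolute size of the ratio but is the same in all libraries.

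**Figure D3:**
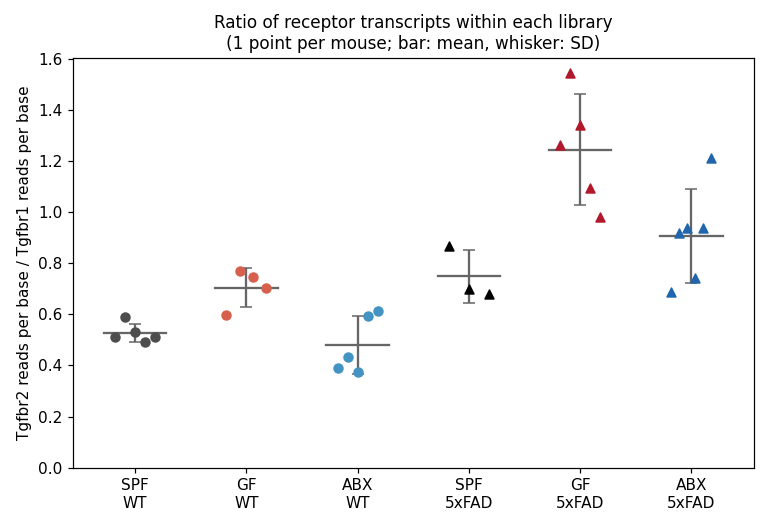
Ratio of *Tgfbr2* to *Tgfbr1* within each library, both in reads per base of gene model (linear axis from 0), with 1 point per mouse, a bar at the group mean and whiskers of 1 SD. Mean ratios run from 0.481 in ABX WT to 1.25 in GF 5xFAD mice, and in each condition the 5xFAD mice lie above the WT mice.

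Of 11 listed other receptors and co-receptors of the superfamily, all tested, 1 rose and 0 fell in 5xFAD against WT mice under SPF, 1 rose and 4 fell under GF and 1 rose and 3 fell under ABX. Of all tested genes 3.73% were called higher and 0.837% lower under SPF, 9.43% and 6.2% under GF and 9.45% and 4.98% under ABX. The gene that rose was *Bambi* in each condition, named here after its values had been seen. *Bambi* encodes a decoy receptor that lacks the kinase domain and restrains TGF-beta signalling. It had log2 fold changes of 1.49 (adjusted p = 0.00438), 3.17 (adjusted p = 5.99e-08) and 1.90 (adjusted p = 2.82e-05) under SPF, GF and ABX, at levels of at most 23.8 CPM. Under GF the genes that fell were *Acvr1*, *Acvr2b*, *Tgfbr3* and *Eng*, the last 2 being genes of TGF-beta co-receptors that are also named after their values had been seen. *Tgfbr3* was at 0 in 16 of 28 libraries and did not exceed 1.55 CPM, so it had enough reads only through a few libraries, and 3 of the other 10 genes fell under GF. Under ABX the genes that fell were *Acvr1*, *Acvr2a* and *Bmpr2*. The medians of the 11 were -0.26, -0.39 and -0.16, beside -0.03, -0.03 and -0.01 over all genes. *Acvr1*, a type I receptor for BMPs and activins, fell by 0.39 (adjusted p = 0.0402) under GF and by 0.50 (adjusted p = 0.00342) under ABX on the log2 scale. *Bmpr2*, the type II receptor for BMPs, had a log2 fold change of -0.70 (adjusted p = 0.00296) under ABX, and in WT mice of -0.73 (adjusted p = 0.0362) for GF against SPF and 0.85 (adjusted p = 0.00632) for ABX against GF mice, the comparisons in which the border-associated macrophage markers also moved. *Acvr2a*, a type II activin receptor, fell with a log2 fold change of -1.08 (adjusted p = 0.0101, SE 0.271) in GF against SPF 5xFAD mice and rose with 0.72 (adjusted p = 0.045) in ABX against GF 5xFAD mice, the directions of *Tgfbr1*. *Acvr2b*, the other activin type II receptor, was highest in GF WT mice, 43.8 ± 6.02 CPM (SD, n = 4), against 27.3 ± 4.69 CPM in SPF WT mice and 23.4 ± 5.50 CPM in GF 5xFAD mice. Its genotype effect under GF was -0.90 (adjusted p = 0.000375), and it differed from that under ABX by 1.02 (adjusted p = 0.0256), a comparison of effects in which 1.76% of all genes (0.915% positive and 0.843% negative) and none of the 8 were called.

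Of the receptor Smads, *Smad3* (mouse chromosome 9, 63646767 to 63757994, reverse strand) was called in 1 pairwise comparison and *Smad2* in none. *Smad3* had 83.7, 63.0, 57.9, 82.2 and 79.1 CPM in GF 5xFAD and 77.9, 131 and 122 CPM in SPF 5xFAD mice. The groups overlapped through mouse FAD_SPF_1144, whose value lay among those of the GF mice. The means were 73.1 ± 11.9 CPM (SD, n = 5) and 110.1 ± 28.3 CPM (SD, n = 3), with a log2 fold change of -0.59 (adjusted p = 0.0305, SE 0.182). The call was lost in 5 settings: without mouse FAD_SPF_1146 the log2 fold change was -0.47 (adjusted p = 0.189), without mouse FAD_SPF_1148 -0.52 (adjusted p = 0.146), without mouse FAD_GF_182 -0.55 (adjusted p = 0.063) and without mouse FAD_GF_184 -0.52 (adjusted p = 0.0712). With gene length offsets it was -0.50 (adjusted p = 0.0504).

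The ABX 5xFAD mice had 59.1 at the lowest, 105 at the median and 134 CPM at the highest for *Smad3*, with a log2 fold change against GF 5xFAD mice of 0.45 (adjusted p = 0.0573), and of 0.48 (adjusted p = 0.0248) over the 26 mice. It also passed with DESeq2 (adjusted p = 0.0272), GC content offsets (adjusted p = 0.0349), library size alone (adjusted p = 0.0254), no filter (adjusted p = 0.0376) and voomWithQualityWeights (adjusted p = 0.0329), and without mouse FAD_ABX_1151 it was 0.36 (adjusted p = 0.152). In WT mice, *Smad3* was 122, 139.8, 116, 131 and 144 CPM under SPF, 114, 73.3, 95.7 and 95.3 CPM under GF and 94.9, 98.8, 99.9, 106 and 99.6 CPM under ABX. Every SPF WT mouse lay above every GF WT and every ABX WT mouse. With log2 fold changes against SPF WT of -0.47 (adjusted p = 0.146) in GF and -0.39 (adjusted p = 1) in ABX mice, neither difference passed. The order of mean levels was SPF WT (131 ± 11.8), SPF 5xFAD, ABX 5xFAD (99.9 ± 25.9), ABX WT (99.8 ± 3.99), GF WT (94.6 ± 16.7) and GF 5xFAD mice, and neighbours among the middle 4 differed by less than 1 SD.

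*Smad2* (GRCm38 chromosome 18, 76241580 to 76305731, forward strand) had group means between 66.5 ± 14.7 CPM in GF 5xFAD and 88.0 ± 13.7 CPM in ABX WT mice, and single mice ran from 44.2 to 107 CPM. The lowest values were in mouse FAD_GF_181 and mouse FAD_ABX_1482, with 44.2 and 49.4 CPM. The log2 fold change of ABX against GF 5xFAD mice was 0.31 (adjusted p = 0.167), and 0.46 (adjusted p = 0.0187) over the 26 mice and 0.20 (adjusted p = 0.403) without mouse FAD_GF_181. *Smad4*, the common Smad (GRCm38 chromosome 18, 73639009 to 73703780, reverse strand), had the smallest range of the 8 genes, with 68.2 to 115 CPM over all mice, a range of 1.68 times, and group means from 86.4 ± 15.8 in GF 5xFAD to 106 ± 9.12 CPM in SPF WT mice, next to 106 ± 2.30 CPM in SPF 5xFAD mice. Relative to WT, its log2 fold change in 5xFAD mice was 0.00 (95% interval -0.28 to 0.28) under SPF, -0.21 (95% interval -0.46 to 0.05) under GF and 0.04 (95% interval -0.19 to 0.27) under ABX. For both genes neighbours in the order of group means differed by less than 1 SD.

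Of 6 listed other Smads and Smad anchors, 5 were tested. *Smad1*, a receptor Smad of the BMP branch, fell in GF 5xFAD against GF WT mice with a log2 fold change of -0.56 (adjusted p = 0.000183, SE 0.101), from 144 ± 15.4 to 97.9 ± 13.3 CPM, and *Zfyve16* (endofin, an endosomal Smad anchor) fell by 0.57 (adjusted p = 0.0376). These were 2 of 5, beside 6.2% of all tested genes called lower. Under SPF and ABX 0 of the 5 passed. *Zfyve16* was also lower in GF than in SPF 5xFAD mice, with a log2 fold change of -0.95 (adjusted p = 0.00351, SE 0.201), and both genes were higher in ABX than in GF 5xFAD mice, *Zfyve16* by 0.68 (adjusted p = 0.0112) and *Smad1* by 0.29 (adjusted p = 0.04).

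*Skil*, the corepressor gene (mouse chromosome 3, 31095058 to 31122577, forward strand), was lowest in GF 5xFAD mice, as *Tgfbr1* was. GF 5xFAD mice had 138, 143, 113, 171 and 159 CPM, GF WT mice 269, 186, 208 and 206 CPM and SPF 5xFAD mice 221, 304 and 288 CPM. Every GF 5xFAD mouse lay below every GF WT and every SPF 5xFAD mouse. The means were 145 ± 22.1 CPM (SD, n = 5), 217 ± 36.1 CPM (SD, n = 4) and 271 ± 44.1 CPM (SD, n = 3). Against GF WT mice *Skil* fell with a log2 fold change of -0.59 (adjusted p = 0.018, SE 0.172), and against SPF 5xFAD mice with a log2 fold change of -0.91 (adjusted p = 0.003, SE 0.184). The first of these was lost without mouse WT_GF_199, with -0.47 (adjusted p = 0.0983), and without mouse FAD_GF_184, with -0.50 (adjusted p = 0.0578). Mouse WT_GF_199 was the highest GF WT mouse for *Skil* and for *Tgfbr1*.

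The ABX 5xFAD mice had 126 at the lowest, 226 at the median and 337 CPM at the highest for *Skil*, with mouse FAD_ABX_1151 the highest and mouse FAD_ABX_1482 the lowest of the group, as for *Tgfbr1*. They were above GF 5xFAD mice by a log2 fold change of 0.65 (adjusted p = 0.00907, SE 0.157). Over the 26 mice the log2 fold change was 0.63 (adjusted p = 0.00199), and in a fit of the 2 groups alone 0.68 (adjusted p = 0.0743). SPF WT and ABX WT mice had 215, 263, 297, 266 and 299.7 CPM and 281, 313, 249.8, 256 and 284 CPM. The genotype effect was 0.02 (95% interval -0.37 to 0.40) under SPF and -0.29 (adjusted p = 0.233) under ABX, and that under GF differed from that under SPF by -0.60 (95% interval -1.12 to -0.09, adjusted p = 0.514), which did not pass. In this comparison of effects edgeR called 0 of all genes, with 1304 at an unadjusted p under 0.05, and DESeq2 called 25 and voomWithQualityWeights 116, none of them among the 8. By mean level the order was ABX WT, SPF 5xFAD, SPF WT, ABX 5xFAD, GF WT and GF 5xFAD, the order of *Tgfbr1*, and the first 3 differed by less than 1 SD.

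*Smad7*, the gene of the inhibitory Smad (GRCm38 chromosome 18, 75367529 to 75395935, forward strand), had its highest mean in SPF WT mice. These had 86.8, 76.5, 81.2, 81.2 and 95.6 CPM, GF WT mice had 58.1, 60.4, 65.1 and 57.0 CPM and ABX WT mice 61.0, 68.4, 70.5, 78.1 and 49.6 CPM. All 5 SPF WT mice lay above all 4 GF WT mice, and 1 ABX WT mouse lay within the SPF range. The log2 fold change was -0.49 (adjusted p = 0.165), 95% interval -0.87 to -0.11, for GF and -0.36 (adjusted p = 1) for ABX against SPF WT mice. The 5xFAD mice had 31.7, 75.8 and 80.1 CPM under SPF, 49.6, 54.6, 59.5, 56.8 and 44.7 CPM under GF and 40.3 at the lowest, 60.0 at the median and 71.5 CPM at the highest under ABX. Mouse FAD_SPF_1144 was again the lowest of all 28 mice, and without it the log2 fold change of SPF 5xFAD against SPF WT mice went from -0.43 (adjusted p = 0.325) to -0.11 (adjusted p = 0.971). Although the F test passed, no pairwise comparison of *Smad7* did in edgeR with TMM factors over all 28 mice. GF against SPF WT mice passed with only the groups compared, at -0.47 (adjusted p = 0.00725), and with voomWithQualityWeights, at -0.48 (adjusted p = 0.0381). The order of mean levels was SPF WT (84.2 ± 7.33), ABX WT (65.5 ± 10.8), SPF 5xFAD (62.5 ± 26.8), GF WT (60.2 ± 3.60), ABX 5xFAD (56.3 ± 11.9) and GF 5xFAD (53.1 ± 5.90), and below SPF WT neighbours differed by less than 1 SD.

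All 14 listed genes that restrain or tune the pathway were tested. In 5xFAD against WT mice 0 passed under SPF, 2 of 14 fell under GF, beside 6.2% of all tested genes called lower, and 1 fell under ABX, beside 4.98%. *Rnf111* (Arkadia, a ubiquitin ligase that degrades SnoN and Smad7) fell in GF 5xFAD against GF WT mice with a log2 fold change of -0.43 (adjusted p = 0.00801, SE 0.114). Its log2 fold change was -0.55 (adjusted p = 0.00477) for GF against SPF and 0.47 (adjusted p = 0.00503) for ABX against GF 5xFAD mice, the directions of *Skil*. *Ldlrad4*, which encodes an inhibitor of receptor Smad activation, had a log2 fold change of -0.44 (adjusted p = 0.0115) between the GF genotypes. *Pmepa1*, a TGF-beta-induced gene whose product sequesters receptor Smads, fell in ABX 5xFAD against ABX WT mice with a log2 fold change of -0.40 (adjusted p = 0.000685, SE 0.0789), and this effect differed from that under GF by -0.45 (adjusted p = 0.0452). *Tgif1*, a Smad corepressor, was higher in GF than in SPF 5xFAD mice with a log2 fold change of 0.44 (adjusted p = 0.0255, SE 0.132).

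Of 10 general TGF-beta target genes in the table, 9 were tested, *Skil* and *Smad7* among them. *Bhlhe40*, a transcription factor gene, rose in 5xFAD mice under all 3 conditions, from 0.580 ± 0.501 to 30.3 ± 10.0 CPM (SD, n = 3) under SPF, with log2 fold changes of 5.71 (adjusted p = 3.50e-09), 5.60 (adjusted p = 3.80e-09) under GF and 4.97 (adjusted p = 4.65e-09) under ABX. Under SPF 4 of 6 border-associated macrophage and 1 of 3 tested monocyte markers were called higher, and under ABX 6 of 6 and 2 of 3. Neutrophil markers were high in the SPF 5xFAD mice and in mouse FAD_ABX_1151. The part of all these markers in the rises of *Bhlhe40* was not tested. *Klf10*, the TGF-beta-inducible early gene, fell in GF 5xFAD against GF WT mice with a log2 fold change of -1.01 (adjusted p = 0.0109, SE 0.275). *Tgfbi*, an extracellular matrix gene, was highest in ABX 5xFAD mice, 97.3 ± 24.9 CPM (SD, n = 6), and rose there by 0.55 (adjusted p = 0.00929) against ABX WT and by 0.60 (adjusted p = 0.0089) against GF 5xFAD mice. In the first of these comparisons 6 of 6 border-associated macrophage and 2 of 3 monocyte markers were called higher. In the second 1 of 6 and 1 of 3 were. Of the mice compared, mouse FAD_ABX_1151 alone was high in neutrophil markers. The part of all these markers in the rises of *Tgfbi* was not tested. Over the list there was 1 rise and 0 falls under SPF, 1 rise and 2 falls under GF and 2 rises and 0 falls under ABX, the second fall under GF being *Skil*, beside the shares of all tested genes called higher and lower that were given for the receptors, 9.43% and 6.2% under GF for example.

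The 14 genes of homeostatic microglia that are known to depend on TGF-beta were lower in part in 5xFAD mice. Of the 14, 4 fell under SPF, beside 0.837% of all tested genes called lower, 7 under GF, beside 6.2%, and 7 under ABX, beside 4.98%, and none rose. In the same comparisons 4 of 6 border-associated macrophage markers were called higher under SPF, and 6 of 6 of them and 2 of 3 monocyte markers under ABX. Neutrophil markers were high in the SPF 5xFAD mice and, under ABX, in mouse FAD_ABX_1151 alone. The part of all these markers in these falls was not tested. The medians of the 14 were -0.28, -0.27 and -0.22 on the log2 scale, and their list shares genes with the microglial markers given above. *Tmem119* fell by 0.50, 0.65 and 0.37 on the log2 scale under SPF, GF and ABX (adjusted p = 0.00335, 1.31e-05 and 0.00349). *P2ry12*, a purinergic receptor gene, was at 5269 ± 847 CPM (SD, n = 5) in GF 5xFAD mice and 7015 ± 392 CPM (SD, n = 3) in SPF 5xFAD mice, a log2 fold change of -0.41 (adjusted p = 0.0194), and *P2ry13* had one of -0.57 (adjusted p = 0.00466). *Fcrls*, an Fc receptor-like scavenger gene, went the other way, with 3499 ± 165 CPM (SD, n = 5) in GF and 2038 ± 17.0 CPM (SD, n = 3) in SPF 5xFAD mice and a log2 fold change of 0.78 (adjusted p = 1.02e-05, SE 0.0863). In ABX against GF 5xFAD mice 5 of the 14 rose and 1 fell, beside 4.52% of all tested genes called higher and 6.07% lower. The part of the neutrophil, border-associated macrophage and monocyte markers that were higher in this comparison, as given for *Tgfbr1*, was not tested. In WT mice 0 of the 14 passed for GF against SPF, and 3 rose and 2 fell for ABX against GF, beside 2.4% of all tested genes called higher and 4.48% lower.

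Across the 28 mice, *Tgfbr1*, *Skil* and *Smad3* varied together, and *Tgfbr2* had lower correlations with them. Pearson's r of log2 CPM was 0.95 for *Tgfbr1* and *Skil*, 0.86 for *Smad3* and *Skil* and 0.85 for *Tgfbr1* and *Smad3*. Spearman's rho was 0.92, 0.79 and 0.79. After the group means were removed the values of r were 0.89, 0.85 and 0.82, so the 3 genes also deviated together among mice of 1 group. *Tgfbr1* and *Tgfbr2* had an r of -0.06 over all mice and of 0.50 within groups. *Tgfb1* had an r of at most 0.69 with any other of the 8, *Smad7*. The values of 1 mouse share a library, its depth and its composition, and these correlations are descriptions of the 28 mice with no test.

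**Figure D4:**
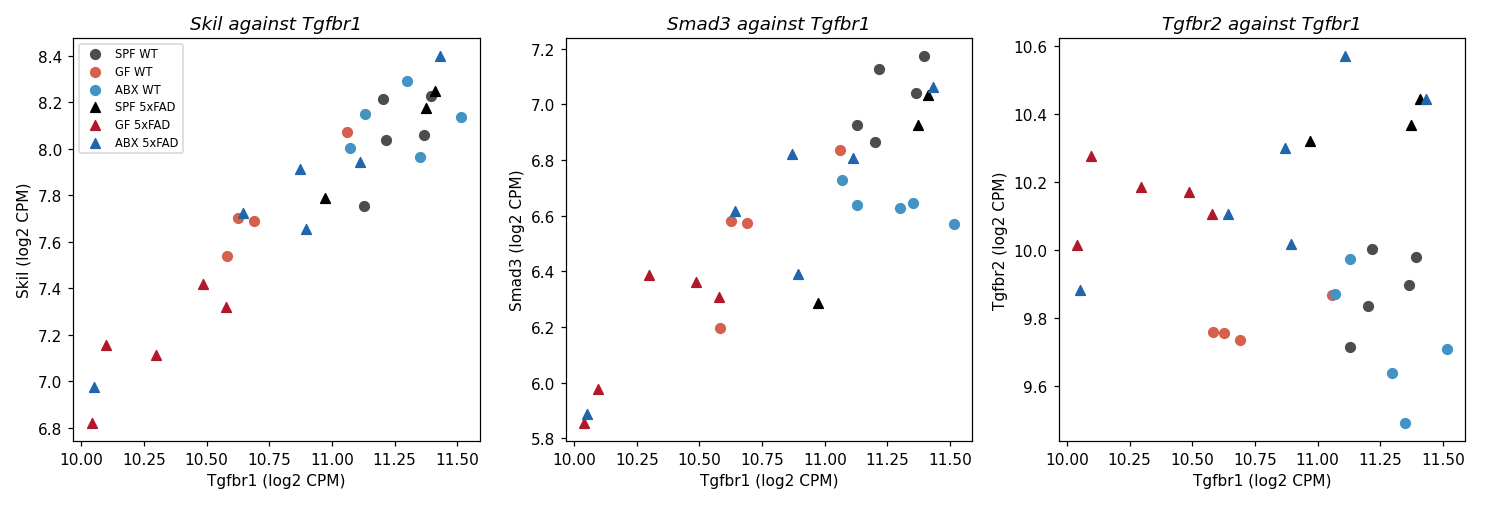
*Skil*, *Smad3* and *Tgfbr2* against *Tgfbr1*, each in log2 CPM, with 1 point per mouse coloured by group (circles WT, triangles 5xFAD). The first pair of panels shows points along a rising line with GF 5xFAD mice at its lower end (r = 0.95 and 0.85), and in the third, at a like level of *Tgfbr1*, the 5xFAD mice lie higher in *Tgfbr2* than most WT mice (r = -0.06).

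Among the 9050 tested genes whose average reached 3 log2 CPM, *Itgav* had the highest correlation with *Tgfbr1* (r = 0.96) and with *Smad3* (r = 0.90), and the second highest with *Skil* (r = 0.955, after *Agps* with r = 0.958). *Itgav* encodes the integrin αV chain, which with its β partners releases active TGF-beta from the latent complex. Of the 5xFAD mice, the 5 GF mice had a mean of 133 ± 17.0 CPM of *Itgav* (± SD), the 3 SPF mice one of 294 ± 43.2 and the 6 ABX mice one of 216 ± 89.3. The log2 fold change was -1.15 (adjusted p = 0.00227, SE 0.223) for GF against SPF and 0.70 (adjusted p = 0.0187, SE 0.191) for ABX against GF 5xFAD mice. *Itgav* is given here for its correlation over the same mice, so these differences are no separate support for those of *Tgfbr1* and *Skil*. Other genes with the highest correlations were *Arhgap5* for *Tgfbr1* (r = 0.95), *Galnt4* for *Smad3* (r = 0.90), *Gtf3c4* and *Adam9* for *Tgfbr2* (r = 0.94 and 0.90), *Wasf2* for *Smad7* (r = 0.83), *Oxr1* and *Tnfaip3* for *Smad2* (r = 0.87 and 0.84), *Zfp871* and *Dennd4c* for *Smad4* (r = 0.79 and 0.78) and *Mboat7* and *Mta1* for *Tgfb1* (r = 0.77 and 0.76). The correlations of *Tgfb1*, *Smad2* and *Smad4* fell most when the 2 mice farthest from the median of the gene were left out, for *Smad2* and *Tnfaip3* to 0.52.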

How the data were processed

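RNA of sorted hippocampal microglia was sequenced from 28 mice. The authors prepared libraries with a SMARTer kit and Nextera XT, aligned reads to GRCm38 with STAR 2.7.2 and counted them per gene with featureCounts 1.6.2. The deposited values are raw counts, not normalized, beside summed exon lengths. The 92 spike-in entries were left out, and of 48587 symbols 46484 matched GENCODE M21. Libraries are not stranded, and no other gene shares exonic bases with the 8. Every per-mouse column was used.

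Counts were filtered with filterByExpr (minimum count 10, minimum total 15), which left 15298 genes, scaled by TMM and tested with edgeR 4.0.16 in R 4.3.3 by quasi-likelihood, with 1 term per group, 9 pairwise contrasts, 3 differences of genotype effects and an F test, and Benjamini-Hochberg adjustment over all genes at 0.05. Log2 CPM used a prior count of 2. Intervals cover 95% of the fitted contrast. RPKM values use the deposited lengths. The model was tested on simulated data. The 8 genes, the 6 role lists and the tests were chosen with earlier results of these data known. Of each list at most 4 genes are named, those with an adjusted p under 0.05 in a pairwise contrast and an average of at least 3 log2 CPM, by smallest F test p, with *Tgfb2*, *Tgfb3* and, for each of the 8, the 2 genes of highest correlation. *Bambi*, *Tgfbr3*, *Eng*, *Itgb8* and *Ltbp3* are outside this rule and were named after their values had been seen. Some results that this rule gives are not reported here. Replicates are separate mice, and all 54 pairs of replicates differed by more than counting noise (chi-square over degrees of freedom of 6.92 or more).

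Alternatives were RLE factors, library size alone, no filter, gene length offsets, GC content offsets, voomWithQualityWeights (limma 3.58.1), which the study's methods name, DESeq2 1.42.0, only the groups compared, 26 mice, and each of the 28 mice left out. Figures were drawn with matplotlib 3.10.9.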

Additional observations from a re-analysis of the deposited data

Results flagged for a closer look

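In 40 groups of at least 4 mice, 1 for each of the 8 genes in the 5 such groups, 3 held a mouse that stood apart from the others by Dixon's test, where chance gives about 1 in 20. Mouse WT_GF_199 had 166 CPM of *Tgfb1*, while the other GF WT mice had 207 to 215 CPM. The same mouse had 934 CPM of *Tgfbr2*, above the 852 to 865 CPM of the other GF WT mice. Mouse WT_SPF_912 had 90.4 CPM of *Smad4*, below the 108 to 114 CPM of the other SPF WT mice. No call of *Tgfbr2* was lost without mouse WT_GF_199, and *Tgfb1* and *Smad4* had no call to lose, but the *Skil* call in GF 5xFAD against GF WT mice was lost without mouse WT_GF_199.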

How the results depend on the processing

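No called value of the 8 genes changed direction under the 9 alternative settings or with any of the 28 mice left out. Genes outside the 8 were fitted as well, but their single results under these are not given here. The counts of the 8 genes called did not change by over 1.5 times, under any of these, in SPF 5xFAD against SPF WT mice (1), GF against SPF 5xFAD mice (3, and 2 to 4 with mice left out), ABX against SPF mice (0 in either genotype), the 3 differences of genotype effects (0) or the F test (5, and 4 to 7 over all settings). In ABX 5xFAD against ABX WT mice the count was 1, and 2 with library size alone, gene length offsets, voomWithQualityWeights or 26 mice, and 1 to 3 with mice left out, with 3 without mouse FAD_ABX_1151. In GF 5xFAD against GF WT mice it was 2, and 3 with library size alone, 26 mice or only the groups compared and 1 to 3 with mice left out, with 1 without mouse WT_GF_199 or mouse FAD_GF_184. In GF against SPF WT mice it was 0, and 4 with voomWithQualityWeights, 3 with only the groups compared, 1 with DESeq2 or 26 mice and 0 to 1 with mice left out, with 1 without mouse FAD_ABX_1482. In ABX against GF WT mice it was 0, and 2 with voomWithQualityWeights or only the groups compared, 1 with library size alone, no filter, gene length offsets, DESeq2 or 26 mice and 0 to 1 with mice left out, with 1 when any 1 of mice WT_GF_199, WT_ABX_923, WT_ABX_932, FAD_GF_184, FAD_GF_201, FAD_ABX_1151 and FAD_ABX_1482 was left out. In ABX against GF 5xFAD mice it was 2, and 3 with library size alone, no filter, GC content offsets, voomWithQualityWeights or DESeq2, 4 with 26 mice, 0 with only the groups compared and 1 to 4 with mice left out, with 1 without mouse FAD_ABX_1151 and 4 without mouse FAD_ABX_1482. The cause of these changes was not tested, beyond fewer mice in some fits. Scaling by library size alone moved the median of all genes to -0.15 in GF 5xFAD against GF WT mice. No paired analysis was possible because the groups share no replicate numbers. Depth did not limit the 8 genes, and each comparison that uses SPF 5xFAD mice rests on 3 mice in that group.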
